A study of Mus musculus with 4 samples.

Results

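The 5 genes described here encode the intermediate filament proteins of neurons. They are Nefl, Nefm and Nefh, the light, medium and heavy neurofilament subunits, with Ina, which encodes alpha-internexin, and Prph, which encodes peripherin. They were taken by name from a table of 18674 gene names, all 5 were found, and each value is the mean of the rows that carry the name. Nefl, Nefm, Nefh and Ina have 1 row each and Prph has 3 rows.

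RNA of the lumbar spinal cord was sequenced from wild type (WT) mice and from mice of the G93A line, a model of amyotrophic lateral sclerosis (ALS), with and without spermidine (SD), a natural polyamine. The 4 libraries, 1 per condition, are named WT vehicle and WT + SD, then G93A vehicle and G93A + SD, and values without a library name follow this order. The comparisons ask how the mutant differs from WT and how SD changes either genotype. G93A mice express a mutant human SOD1 transgene from the high-expresser strain and were bred on a B6/SJLF1 background, while WT mice lack the transgene. Per the labels of these libraries, SD or PBS was given 4 times a week for 30 days, and the methods place euthanasia at an age of 100 days, so that all 4 conditions share the injections and the age. The study's section on dosing gives 5 mg/kg by intraperitoneal injection and names saline as the vehicle over a longer course. Its section on animals states that treatment studies used males. The labels of the vehicle libraries give no treatment beside that protocol. How many animals each library holds is not stated. With 1 library per condition no difference has a replicate check, no test could be run and no p-value is given, and the differences between animals or dissections cannot be told apart from those between conditions.

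Values are RPKM, which divide the reads of a transcript by its length and by the size of its library, a unit inferred from the values. The sum of RPKM over all rows was between 376852 and 393328 per library. Depth is not given in the table and was estimated at 36800000 to 38600000 read pairs. On that estimate the members rested on 101000 pairs for Nefl in WT vehicle down to 1050 for Prph in G93A + SD, with an expected counting error of 0.315% to 3.09%. This error covers counting only, and not the spread between animals. A difference is given on the log2 scale after adding 0.1 RPKM, and is called lower or higher where it reaches 1.5-fold, the size used in the study. The background is the share that passes the same size among the 12987 gene names averaging 1 RPKM or more.

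Intermediate filaments are cytoskeletal polymers of proteins with a central coiled-coil rod. In mature neurons NEFL forms the core of the neurofilament, and NEFM and NEFH join it with long tails that are heavily phosphorylated in axons. Alpha-internexin assembles with the neurofilament triplet in central axons and appears early in development. Peripherin is found mainly in neurons that send axons out of the central nervous system, including spinal motor neurons and sensory neurons. Neurofilaments fill thick myelinated axons and set their calibre, are carried along microtubules, and accumulate in motor neurons in ALS.

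The genes lie on 4 chromosomes of GRCm38. Nefl and Nefm are neighbours on chromosome 14, Nefl on the plus strand at chr14:68083863-68089095 and Nefm on the minus strand at chr14:68119545-68125004 in RefSeq, 30.4 kb apart with 0 protein-coding genes annotated between them. Nefh lies on the minus strand at chr11:4938754-4948064. Ina lies on the plus strand at chr19:47014681-47025327, and Prph on the plus strand at chr15:99053579-99058978 in RefSeq and chr15:99055174-99058978 in GENCODE M21. The transcripts of Nefl, Nefm, Nefh and Ina have 4, 3, 4 and 3 exons, and those of Prph 8 or 9. Of the windows of 53 bases (the read length) in the Nefl transcript, 31.7% also occur in a longer annotated Nefm transcript on the opposite strand, and 12.7% of those in Ina occur in Nt5c2 on the opposite strand. Whether counting used strand is not stated, so Nefl and Ina are uncertain to that extent. The longer Nefm transcript would bring the same uncertainty to Nefm and its ratios if reads were counted per gene without strand, while 0 windows of the shorter transcript listed for Nefm are shared with another gene. For Nefh and Prph, 0 windows are shared.

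Of the 5 members, only Ina and Prph are in the RefSeq promoter set used here, and for that reason the 250 bases before the start of each are shown. The sequences are from RefSeq on GRCm38.p6, plus strand, at chr19:47014431-47014680 for Ina and chr15:99054924-99055173 for Prph, and run 5′ to 3′ up to the base before the start. The start used for Prph is the one at 99055174, so its window lies within the longer RefSeq span of the gene. Capitals mark TATAAA and CCGCCC, which is the GC box GGGCGG read on the minus strand. Promoters of Nefl, Nefm and Nefh are not shown.
Ina: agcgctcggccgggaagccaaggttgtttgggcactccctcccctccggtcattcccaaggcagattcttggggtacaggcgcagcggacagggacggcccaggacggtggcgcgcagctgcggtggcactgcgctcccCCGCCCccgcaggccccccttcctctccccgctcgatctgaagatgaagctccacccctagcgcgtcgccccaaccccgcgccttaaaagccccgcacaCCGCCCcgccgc
Prph: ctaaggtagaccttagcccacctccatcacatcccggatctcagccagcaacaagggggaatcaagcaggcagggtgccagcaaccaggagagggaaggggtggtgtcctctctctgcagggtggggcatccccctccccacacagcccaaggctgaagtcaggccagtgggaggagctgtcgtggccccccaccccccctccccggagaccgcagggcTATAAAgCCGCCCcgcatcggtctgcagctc

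The windows differ in composition. The Ina window has 70.8% G and C with 25 CpG sites, and the Prph window 65.2% with 7, against medians of 52.4% and 6 over 32851 promoter windows of the same length. Prph holds TATAAA from base -31 to -26 before the start, next to a GC box from -24 to -19. Ina holds no TATAAA, and has GC boxes from -111 to -106 and from -12 to -7. On either strand, TATAAA occurs in 12.4% of all windows and GGGCGG in 32.7%, and these matches describe letters only. An E-box, CANNTG, occurs in Ina at -135 to -130 and in 66.2% of all windows. CCAAT (33.8% of windows), TGACGTCA (1.55%) and TTCAGCACC (0.301%) were also searched on both strands, and their letters are not in either window.

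The triplet genes were among the most abundant messages of the WT cord. Nefl had 812 RPKM with vehicle and 763 with SD in WT mice, and 413 with vehicle and 254 with SD in G93A mice. Nefm had 612, 603, 347 and 234 RPKM in the same order. Nefh had 327, 313, 160 and 99.2 RPKM. The WT libraries lay close together for all of these genes, G93A vehicle lay below both of them, and G93A + SD was the lowest library. Ina had 77.2, 84.3, 53.7 and 37.2 RPKM, with its highest value in WT + SD. Prph had 23.8, 21.0, 20.3 and 14.8 RPKM, and its values in WT + SD and G93A vehicle were nearly level. The order of levels was Nefl, Nefm, Nefh, Ina and Prph in every library.

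**Figure D1:**
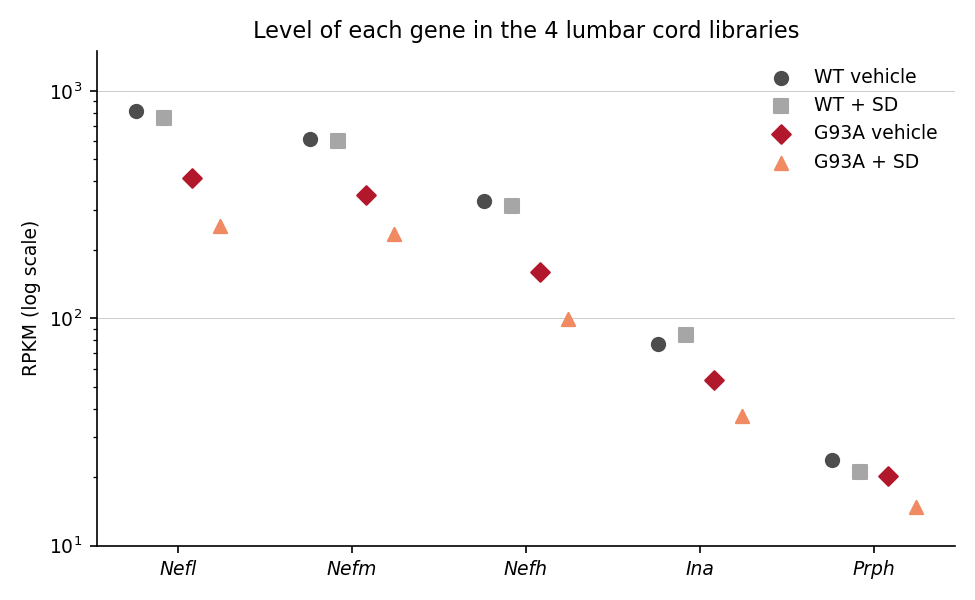
RPKM of the 5 genes on a log scale, with 1 point for each of the 4 libraries. G93A + SD is the lowest point for every gene, from 254 RPKM for Nefl to 14.8 for Prph, and the WT libraries lie close together.

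Ranked by level among the 18674 names, Nefl was 6th in both WT libraries, 45th in G93A vehicle and 86th in G93A + SD. Nefm went from 13th in both WT libraries to 60th and 95th. Nefh was 49th and 57th in the WT libraries, 170th in G93A vehicle and 351st in G93A + SD. The summed level of the 5 genes was 1853 RPKM with vehicle and 1783 with SD in WT mice, and 993 with vehicle and 639 with SD in G93A mice. As a share of the RPKM of all names this was 0.719%, 0.694%, 0.359% and 0.23%. The neuronal filament message therefore took a smaller share of both G93A libraries than of either WT library.

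In G93A vehicle against WT vehicle, the neurofilament triplet was lower and the other members less so. Nefh, the subunit with the longest tail, differed by -1.03 on the log2 scale (2.05-fold lower). Nefl, the core subunit, differed by -0.98 (1.97-fold lower). Nefm differed by -0.82 (1.77-fold lower). Ina, at -0.52 (1.44-fold), and Prph, at -0.23 (1.17-fold), did not reach 1.5-fold, although Ina did, at -0.59, after scaling by median ratios. Thus 3 of 5 members were called lower and 0 higher, where 4.34% of all names were lower and 13.1% higher. The median of the members was -0.82, against 0.050 over all names. Counted from the lowest of 12987 names, Nefh was 64th, Nefl 76th, Nefm 153rd, Ina 769th and Prph 2679th.

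Many names with large differences have low levels, so the triplet was also set beside the 343 names with a mean of at least 100 RPKM, a comparison chosen after the values had been seen. Of these, 19 (5.54%) were lower in G93A vehicle. Nefh, Nefl and Nefm, in that order, were the 3 lowest of the 343 differences. Snap25, which encodes a synaptic SNARE protein and had 1268 RPKM in WT vehicle and 782 in G93A vehicle, was the fifth at -0.70.

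Under SD the distance between the genotypes was wider for all 5 genes. In G93A + SD against WT + SD, Nefh differed by -1.65 (3.15-fold lower) and Nefl by -1.59 (3.01-fold lower). Nefm differed by -1.36 (2.57-fold lower). Ina, called here though not under vehicle, differed by -1.18 (2.26-fold lower). Prph differed by -0.50 (1.42-fold) and was not called. Thus 4 of 5 members were lower, with 7.85% of all names lower and 15.8% higher, so that more of all names differed here as well. The median of the members was -1.36, against 0.047 over all names. Among the 343 abundant names, 53 (15.5%) were lower, and Nefh, Nefl and Nefm ranked from 2 to 4 after Scg5, which encodes the secretory granule chaperone 7B2.

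In WT mice the members differed little with SD. Nefl differed by -0.09, Nefm by -0.02, Nefh by -0.07, Ina by 0.13 and Prph by -0.18 in WT + SD against WT vehicle. None of the 5 genes reached 1.5-fold in either direction, with a background of 1.16% lower and 0.732% higher. The median of the members was -0.07 and that of all names 0.015.

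In G93A mice Nefl and Nefh were lower with SD and the other members did not reach 1.5-fold. In G93A + SD against G93A vehicle, Nefl differed by -0.70 (1.63-fold lower) and Nefh by -0.69 (1.61-fold lower). Nefm, at -0.56 (1.48-fold), lay just below the size that counts as a call. Ina differed by -0.53 (1.44-fold) and Prph by -0.45 (1.36-fold). Thus 2 of 5 members were called lower and all 5 were below 0, where 0.932% of all names were lower and 1.24% higher. The median of the members was -0.56, against 0.009 over all names. Nefl was 84th from the lowest of 12987, Nefh 86th, Nefm 136th, Ina 173rd and Prph 274th. Of the 343 abundant names 3 (0.875%) were lower, namely Scg5 at -1.35, Nefl and Nefh, and Nefm came next.

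**Figure D2:**
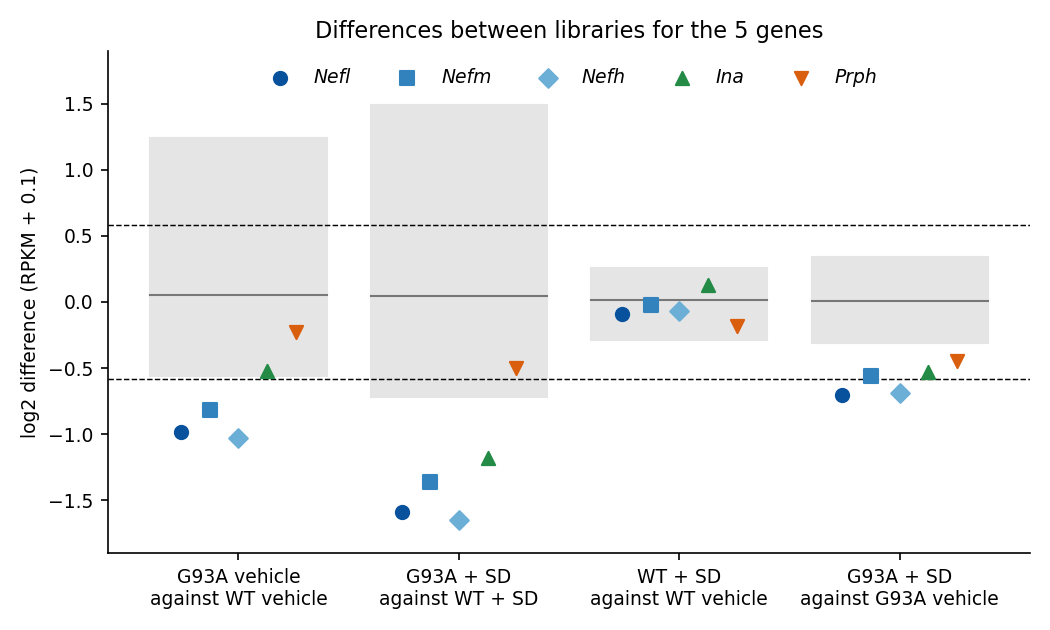
log2 difference of each gene in the 4 comparisons, with 0.1 RPKM added and 1 library on each side. Grey boxes run from the 5th to the 95th percentile of 12987 gene names, the grey line is their median and dashed lines mark 1.5-fold. In G93A + SD against G93A vehicle all 5 genes lie below the box, between -0.70 and -0.45.

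The SD difference in G93A mice minus that in WT mice was below 0 for all 5 genes. It was -0.61 for Nefl, -0.54 for Nefm, -0.62 for Nefh, -0.65 for Ina and -0.27 for Prph, against a median of -0.006 over all names. Ina lay close to the triplet here, and the value of Prph was the smallest in size. These comparisons share libraries, so the low G93A + SD values enter the genotype comparison under SD and the SD comparison in G93A mice alike.

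The balance within the triplet was read from ratios within a library, which do not move with the scaling of that library. Nefl to Nefh held near one value, at 2.48 with vehicle and 2.44 with SD in WT mice, and 2.58 with vehicle and 2.56 with SD in G93A mice. Nefl to Nefm was 1.33, 1.27, 1.19 and 1.08 in the same order. Nefm to Nefh was 1.87, 1.93, 2.17 and 2.36. The medium subunit thus made up more of the triplet in the G93A libraries than in the WT libraries. Of the summed triplet, Nefm was 35.0% and 35.9% in WT mice without and with SD, and 37.7% and 39.9% in G93A mice. Over the same libraries Nefl was 46.4%, 45.5%, 44.9% and 43.2%, and Nefh 18.7%, 18.6%, 17.4% and 16.9%.

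Nefl moved apart from Ina and Prph further than from Nefm and Nefh. Ratios of Nefm to Ina and Prph were not taken. Nefl to Ina was 10.5 with vehicle and 9.06 with SD in WT mice, and 7.69 with vehicle and 6.81 with SD in G93A mice. Nefl to Prph was 34.1, 36.2, 20.4 and 17.1, so that its highest value was 2.12 times its lowest. Ina to Prph was 3.24, 4.00, 2.65 and 2.51. Peripherin, the least abundant member, therefore made up 1.28% and 1.18% of the summed 5 genes in WT mice without and with SD, and 2.04% and 2.32% in G93A mice.

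**Figure D3:**
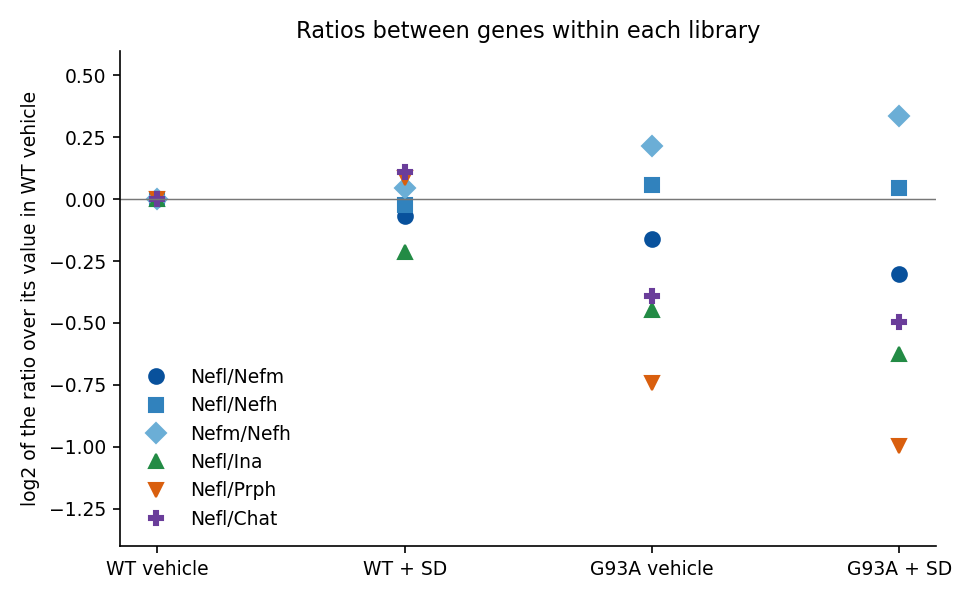
Ratio of RPKM between genes within each library, as log2 of the ratio over its value in WT vehicle (0 by construction). Chat, the acetylcholine synthesis gene of motor neurons, is included. Nefl/Nefh stays near 0, while Nefl/Prph is lowest in G93A + SD, where the ratio itself is 17.1 against 34.1 in WT vehicle.

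The filament genes were set beside markers of the neurons that express them. In bulk tissue, fewer cells of a type and less RNA per cell cannot be told apart. Chat, which makes acetylcholine in motor neurons, had 9.83 RPKM with vehicle and 8.57 with SD in WT mice, and 6.55 with vehicle and 4.33 with SD in G93A mice. Nefl to Chat was 82.6, 89.1, 63.0 and 58.6 in the same order, and Nefh to Chat was 33.3, 36.5, 24.4 and 22.9. Nefm to Chat was 62.3, 70.3, 52.9 and 54.2. Prph to Chat ran the other way, at 2.42, 2.46, 3.10 and 3.43. Ina to Chat, at 7.85, 9.84, 8.20 and 8.61, did not separate the genotypes. Chat is 1 of 11 motor neuron markers, and ratios to the others were not taken. In G93A vehicle against WT vehicle Chat differed by -0.58, and the markers ran from -1.50 for Chodl to 0.16 for Uts2d. The ratios therefore hold for Chat only, and not for motor neuron markers in general.

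Of 11 motor neuron markers, 6 were lower in G93A mice under vehicle and 8 under SD, with medians of -0.60 and -0.80. With SD in G93A mice 3 were lower (Chat, Chodl and Mmp9), with a median of -0.34. Chodl, a marker of fast motor neurons, had 19.0, 15.2, 6.69 and 3.80 RPKM in the 4 libraries. Of 9 pan-neuronal markers, 2 and 4 were lower in the genotype comparisons and 0 with SD in G93A mice, with medians of -0.41, -0.54 and -0.14. Of 9 markers of other spinal neurons, 4 were lower in each genotype comparison and 1 with SD in G93A mice, with medians of -0.54, -0.53 and 0.05. Among these, Slc6a5, the glycine transporter of inhibitory neurons, had 45.9, 50.4, 21.5 and 17.5 RPKM. Among genes that average 1 RPKM or more, the counts were 4, 6 and 3 of 8 for motor neurons and 4, 3 and 0 of 8 for other spinal neurons. Over all names, 4.34% were lower in G93A mice under vehicle, 7.85% under SD and 0.932% with SD in G93A mice. In WT + SD against WT vehicle 0 genes of these 3 lists were called. The part of neuron number or composition in the filament values was not tested.

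Genes that carry, modify or clear neurofilaments were mostly not called, as were most of all names. Of 19 such genes, 1 was lower and 1 higher in G93A vehicle, with a median of -0.21, where 4.34% of all names were lower and 13.1% higher. Between the SD libraries 2 were lower and 1 higher, with a median of -0.31, where 7.85% of all names were lower and 15.8% higher. Hspb1, a small heat shock protein, was the higher gene, with 7.32 RPKM with vehicle and 6.08 with SD in WT mice, and 56.8 with vehicle and 91.1 with SD in G93A mice. Kif5a, a kinesin motor of neurofilament transport, had 188, 190, 135 and 94.9 RPKM and was called lower between the SD libraries only. With SD in G93A mice, 0 were lower and 1 (Hspb1, at 0.68) was higher, with a median of -0.03. Over all names 0.932% were lower and 1.24% higher there. In WT + SD against WT vehicle 0 were called.

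Genes of the neuronal microtubules, along which filaments move, differed among themselves. Of 16 genes, 3 were lower in G93A mice under vehicle and 7 under SD, with medians of -0.37 and -0.49 and 0 higher. Over all names 4.34% and 7.85% were lower. Stmn1, which encodes the tubulin-binding protein stathmin, had 42.0, 43.9, 17.8 and 15.1 RPKM. Map1b, listed as Mtap1b, had 204, 197, 127 and 106 RPKM, and Mapt, which encodes tau, had 73.5, 77.3, 77.1 and 76.8. With SD in G93A mice 0 of 16 reached 1.5-fold, all 16 were below 0, and the median was -0.24. In WT + SD against WT vehicle 0 were called and the median was -0.01.

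Several intermediate filament genes of other cells were higher in G93A mice. Of 12 genes, 7 were higher under vehicle and 9 under SD in G93A against WT mice and 0 were lower, with medians of 0.63 and 1.38. Among the 8 that average 1 RPKM or more, 4 and 5 were higher, with medians of 0.51 and 0.78. Over all names of that level 13.1% and 15.8% were higher. Gfap, the filament of astrocytes, had 441 RPKM with vehicle and 386 with SD in WT mice, and 2269 with vehicle and 2707 with SD in G93A mice. Vim, the filament of many glial and mesenchymal cells, had 29.8, 27.8, 379 and 586 RPKM. Nefl thus exceeded Gfap in both WT libraries and lay below it in both G93A libraries. With SD in G93A mice 2 were higher, namely Vim at 0.63 and Krt18 at 0.84, of which only Vim averages 1 RPKM or more. In WT + SD against WT vehicle 2 were lower, Des and Krt18, both averaging below 1 RPKM, and 0 of the 8 more abundant genes.

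**Figure D4:**
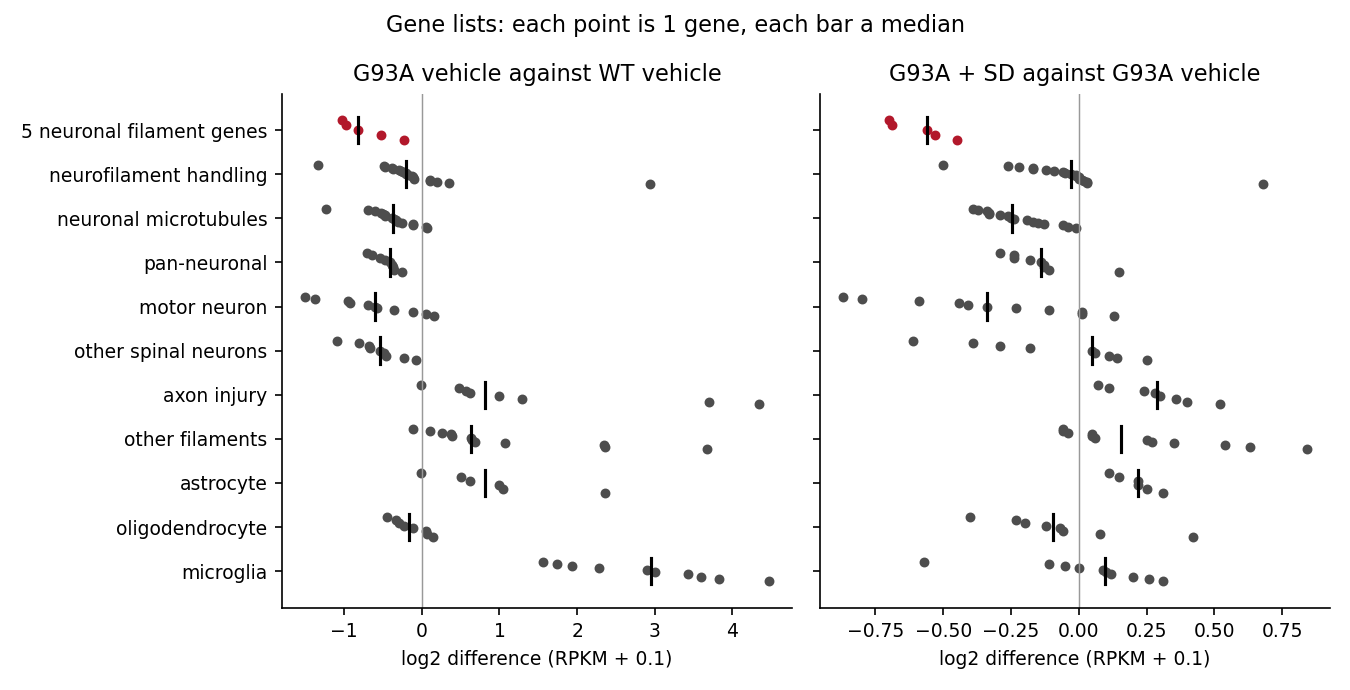
log2 difference of each gene (points) and the median (bars) for the 5 neuronal filament genes in red and for 10 gene lists, in G93A vehicle against WT vehicle (left) and G93A + SD against G93A vehicle (right), whose axes differ in scale. The 5 genes have the lowest median in both panels, at -0.82 and -0.56, and microglial markers the highest on the left, at 2.95.

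Markers of other cells moved along with these differences. All 10 microglial markers were higher in both genotype comparisons, and their summed level was 129 RPKM with vehicle and 109 with SD in WT mice, and 1032 with vehicle and 1074 with SD in G93A mice. For 6 astrocyte markers the sums were 990, 929, 3066 and 3639 RPKM, with 4 and 5 higher. For 8 oligodendrocyte markers they were 8954, 9209, 7321 and 6739 RPKM, with 0 and 1 lower. Of 8 genes induced by axon injury, 5 and 7 were higher in the genotype comparisons, among them Atf3, a stress transcription factor, at 0.606, 0.760, 14.2 and 17.5 RPKM. Over all names 13.1% and 15.8% were higher in these comparisons, and 4.34% and 7.85% lower. With SD, 0 of the microglial, astrocyte, oligodendrocyte and axon injury markers were called in either genotype. In G93A + SD against G93A vehicle, however, all 8 axon injury genes and all 6 astrocyte markers were above 0, with medians of 0.29 and 0.22 against 0.009 over all names. The part of these cell types in the filament values was not tested.

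Markers of peripheral nerve, ganglion and muscle were at low levels apart from Pmp22 and Sox10, which oligodendrocytes or other glia also express. The 8 markers of sensory ganglion neurons summed to 4.71, 4.63, 3.86 and 4.29 RPKM, and Scn10a, a sodium channel of these neurons, was listed at 0 in both WT libraries and reached at most 0.00826 RPKM. The 7 skeletal muscle markers summed to between 1.17 and 1.37 RPKM. The 6 Schwann cell and nerve root markers summed to 89.7, 89.2, 117 and 110 RPKM.

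The genes whose pattern over the 4 libraries lay nearest to the mean pattern of the triplet were ranked among 8847 names with a mean of at least 5 RPKM, by Euclidean distance between centred log2 values. Ina was 58th at a distance of 0.42 and Prph 891st at 0.89. Among the 10 nearest names outside the members were Syt2 (0.15), Mvd (0.17), Kcns3 (0.17), Tesc, Ccdc85c, Stard4, Apln (each 0.20) and Fgf11 (0.21). Syt2, a synaptic calcium sensor, had 88.5, 85.4, 41.3 and 30.2 RPKM. With 4 libraries, likeness of pattern is a description of these values.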

How the data were processed

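PolyA RNA of the lumbar spinal cord was sequenced in 4 libraries, 1 per condition, as 53 bp reads. According to the study's methods, STAR aligned the reads to GRCm38 (mm10), and HTSeq counted them against Ensembl genes. The table itself holds 23750 rows of RefSeq transcripts, and the step that leads to its values, the use of strand and the treatment of reads with several matches are not given in the sources used here. The values deposited by the authors were taken as RPKM, since neither header nor methods name a unit, and were used without rescaling. The 3 ratio columns deposited by the authors hold comparisons between conditions and were not used.

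Rows were averaged per gene name (3257 names have several rows). Differences are log2 of RPKM + 0.1 between single libraries, called at 1.5-fold without a test. Gene names with a mean below 1 RPKM were left out of the background. Median-ratio scaling, pseudocounts of 1 and 0, the row with the highest mean, a size of 2-fold and no filter were tried as alternatives. The 5 genes, the gene lists and the marker lists were chosen with earlier results of these data known, so they support nothing independently. All 5 genes are described. From the lists, genes are named that have a high mean or reach 1.5-fold in a comparison, and names from the 10 nearest are given for likeness. Scn10a and Uts2d are named outside this rule, to show a low level and the end of a range. Some genes of the lists and of the nearest names are not reported here. Rbfox3 and Mrgprd were not analysed here. Depth was estimated from the commonest low value of RPKM times transcript length, read as 1 pair, with lengths for 97.0% of rows from GENCODE M21. Scripts ran in Python 3.11.15 with pandas 2.3.3, numpy 2.4.6 and, for plots, matplotlib 3.10.9, and the calls were tested on simulated data.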

Additional observations from a re-analysis of the deposited data

Results flagged for a closer look

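Ina had opposite signs with SD in the genotypes. In WT mice it had 77.2 RPKM with vehicle and 84.3 with SD, a log2 difference of 0.13, and in G93A mice 53.7 with vehicle and 37.2 with SD, a difference of -0.53. The G93A difference minus the WT difference was -0.65. Neither reached 1.5-fold, each rests on 1 library per condition, and the difference between them was not tested. Krt18, a keratin of simple epithelia from the list of other intermediate filaments, had 0.0952 RPKM with vehicle and 0.0280 with SD in WT mice, and 0.204 and 0.445 RPKM in G93A mice, so that its SD differences were -0.61 and 0.84. The gap between them was 1.45, at levels below 1 RPKM, and was not tested either. With 1 library per condition, no sample could be judged as standing apart from its group.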

How the results depend on the processing

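With 1 library per condition, leaving out a replicate was not possible. No paired analysis was possible because no condition has a second library. Of 90 alternative values for the 20 member differences, 87 kept their direction and their side of 1.5-fold. Those that did not were Ina in G93A vehicle, at -0.59 after scaling by median ratios and at -0.65 against WT + SD, and Prph in G93A + SD, at -0.68 against WT vehicle. The other WT library as reference was chosen after seeing the data. All 25 alternative values for ratios and for differences of the SD differences stayed within limits set from the estimated counting errors. The ratio of Nefl to Prph moved to 33.0, 35.0, 19.7 and 16.5 with the row of highest mean. That is more than 1 counting error of Prph, but within those limits. With a pseudocount of 1 the differences of the SD differences were -0.64 for Ina and -0.26 for Prph. At a size of 2-fold, 1 member was lower in G93A vehicle (in place of 3) and 0 in G93A + SD against G93A vehicle (in place of 2). In G93A + SD against WT + SD the count stayed at 4. The share of all names at 2-fold was not computed, so these counts have no background beside them. Without the filter on low values, 991 names were lower (in place of 563) and 2687 higher (1696) in G93A vehicle, and 3189 higher (2055) in G93A + SD against WT + SD. With SD, 522 were lower (151) and 420 higher (95) in WT mice, and 476 lower (121) and 555 higher (161) in G93A mice. The cause was not tested, although more names enter without the filter. With a floor of 10 RPKM, added after seeing the data, 213 names were lower and 551 higher in G93A mice under vehicle, and 498 and 672 under SD, while 28 and 10 were lower and higher with SD in WT mice and 29 and 37 in G93A mice. With a floor of 100 RPKM these counts were 19 and 50, 53 and 64, 1 and 0, and 3 and 6. The estimated counting error is small for all 5 genes, but the spread between animals was not measured and the use of strand is not stated.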
